A study of Mus musculus with 12 samples.

Results

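Otx2, Pou3f1, Sall2, Tcf15, Foxd3, Zic2 and Lef1 are transcription factors of the formative and primed epiblast, and they were taken by name: every probe whose gene symbol in the array's platform annotation was one of the 7 was used. These were 7 of 19057 genes with a probe of their own, and 11 of 45281 probes. Biotinylated cRNA of E14 mouse embryonic stem (ES) cells, a male line of strain 129/Ola, was read on Illumina bead arrays. The cells grew feeder-free on gelatin with fetal calf serum in the medium.

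The 12 arrays formed 4 groups of 3. Cells called deleted here carried the genotype HDAC1-/-; HDAC2-/wt and were taken at day 4, either after 4 days without leukaemia inhibitory factor (LIF) or with LIF. Wild type cells were taken at day 0, again either after 4 days without LIF or with LIF. Deletion was induced with 4-hydroxytamoxifen (OHT, 16 h, 1 uM), which switches on CreER, a Cre recombinase joined to an estrogen receptor domain. OHT is the agent named on all 12 samples, wild type included. The labels do not explain why it stands on wild type cells of day 0, so a shared exposure cannot be taken as given. Any difference in OHT exposure between day 0 and day 4 would divide the samples as genotype does. Genotype and day divided the samples in the same way and cannot be told apart. All samples came from 1 cell line, the promoter that drives CreER is not given in the sources used here, and nothing states that the 3 arrays per group stand for independent cultures. The p-values may therefore measure technical spread only.

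ES cells in serum and LIF stand close to the naive epiblast of the blastocyst, where LIF acts through the factor Stat3. When LIF is withdrawn, cells leave that state through a formative phase and then a primed one, in which naive factors are shut down and factors such as Otx2 and Pou3f1 (Oct6) bind new enhancers. Hdac1 and Hdac2 are histone deacetylases of the NuRD, Sin3 and CoREST complexes, and both contribute to the silencing of genes in ES cells.

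The names of the arrays were in conflict between the deposited tables, and this bears on every LIF direction given here. Each numbered column of the non-normalized table had the rank order of a processed column that the labels give to another sample (Spearman's rho of 1). The 2 namings gave the same genotype on 12 of 12 arrays, the same culture on 0 and the same replicate number on 0. Values below follow the processed table, whose columns are named by sample. Under the other naming the LIF differences and the interactions change sign, and the comparisons of genotypes exchange their cultures. With the processed naming, 16 of 20 tested naive and core pluripotency genes were lower and 0 higher without LIF in wild type cells. The other naming would make those 16 higher without LIF. Which naming is right was not tested.

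Of 45281 probes, 15999 were kept because their detection p was below 0.05 on all 3 arrays of at least 1 group. Between 35.3% and 38.2% of probes were detected on arrays of deleted cells without LIF, against 33.4% to 39.1% in wild type cells without LIF. The share was 38.2% to 41.8% in deleted cells with LIF, against 32.8% to 37.2% in wild type cells with LIF. Pearson correlations between arrays lay between 0.977 and 0.991 within groups and between 0.957 and 0.985 across groups. The pluripotency genes Pou5f1, Nanog, Sox2, Zfp42 and Dppa5a were detected on 12 of 12 arrays. No probe was named Hdac1 in the annotation used here. The kept Hdac2 probe had log2 values of 10.89 to 11.20 in deleted cells without LIF and 11.06 to 11.29 in wild type cells without LIF. With LIF it had 11.08 to 11.27 in deleted cells and 11.27 to 11.48 in wild type cells. Its deletion differences of -0.13 without LIF and -0.24 with LIF did not pass the test (limma adjusted p of 0.509 and 0.193). A second Hdac2 probe was not kept. The genotypes therefore rest on the sample labels, and these values do not show the deletion of either gene.

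Detection separated the 7 genes. Otx2 (ILMN_2691752), Pou3f1 (ILMN_1233172), Sall2 (ILMN_1240935) and Tcf15 (ILMN_1231030) had 1 probe each, and all 4 were detected on 12 of 12 arrays. Foxd3, a forkhead factor needed to maintain the epiblast and later active in neural crest, had 1 probe (ILMN_1216212) that was detected on 0 of 12 arrays. Its log2 values spanned 6.55 to 7.07, against 7.04 to 7.15 for the dimmest detected probe of each array. Zic2, a zinc finger factor that binds enhancers in primed cells, had 2 probes, and neither was kept. ILMN_2470518 was detected on 3 of 12 arrays, namely arrays 2 and 3 of wild type cells without LIF and array 3 of wild type cells with LIF, with a highest log2 value of 7.54. ILMN_1252072 was detected on 1 of 12 arrays, array 3 of wild type cells without LIF. Foxd3 and Zic2 were not among the kept probes tested. In the alternative fit to all 45281 probes, none of their probes passed in any comparison (limma adjusted p of 0.288 to 0.991). A lack of detection does not show that the transcript was absent.

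Lef1, an HMG-box factor that carries beta-catenin to Wnt target genes, had 4 probes. ILMN_1231087 and ILMN_1233230 were detected on 0 of 12 arrays, and ILMN_1239469 on 1 of 12, array 2 of deleted cells without LIF. ILMN_2648475 was detected on 8 of 12 arrays and passed the filter only through deleted cells without LIF, where 3 of 3 arrays detected it. In all, 5 of 11 probes, of 5 genes, entered the tests.

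**Figure D1:**
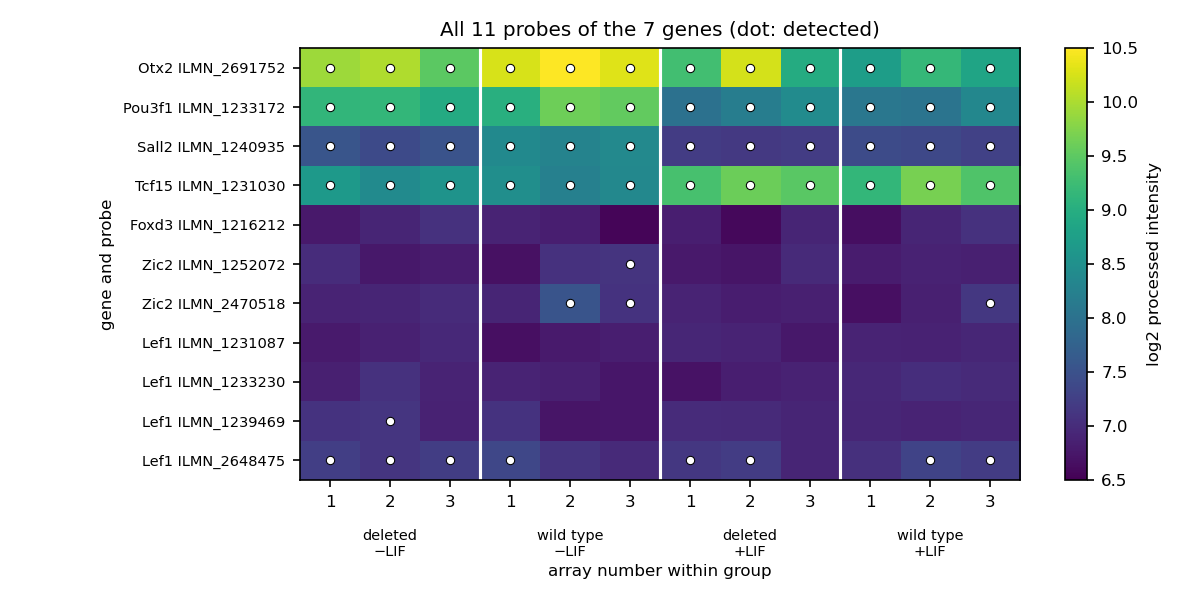
Log2 processed intensity (colour scale) of all 11 probes of the 7 genes on the 12 arrays, in columns by group and array number. White dots mark detection p below 0.05: Otx2, Pou3f1, Sall2 and Tcf15 have a dot on all 12 arrays, and the Foxd3 probe has none.

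Otx2, Sall2 and Zic2 lie on mouse chromosome 14 (RefSeq annotation, build GRCm38.p6), at chr14:48656781-48667644, chr14:52311177-52328670 and chr14:122475384-122480328. Pou3f1 is at chr4:124657646-124660655 and Foxd3 at chr4:99656299-99658671. Tcf15 is at chr2:152143056-152149097 and Lef1 at chr3:131110297-131224357. These are the spans of the genes, and the positions of the probes within them were not analysed here.

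Promoter windows of 300 bases (250 before to 50 after a transcript start) were taken from RefSeq sequence of build GRCm38.p6, where 4 of 7 genes matched: Otx2 and Lef1 with 4 windows each, Sall2 with 2 and Foxd3 with 1. Pou3f1, Tcf15 and Zic2 are named only. Each window was searched on both strands for the STAT motif (TTCNNNGAA), the TCF/LEF motif (CTTTGA or CTTTGT), the OTX motif (TAATCC) and the octamer bound by POU factors (ATGCAAAT). Of 32851 windows of that length, 8.3% held the STAT motif, 31.2% the TCF/LEF motif, 7.06% the OTX motif and 1.74% the octamer. The starts of Otx2 and Sall2, genes whose LIF response is described below, are shown. The Otx2 window is the one of its 4 with any match: it starts inside the gene, on the minus strand at chr14:48665060-48665359, and its capitals mark, in order, an OTX match (read as its reverse complement) and a STAT match. The Sall2 window is that of the second of its starts, on the minus strand at chr14:52316274-52316573, and like the other Sall2 window it holds no match.
Otx2: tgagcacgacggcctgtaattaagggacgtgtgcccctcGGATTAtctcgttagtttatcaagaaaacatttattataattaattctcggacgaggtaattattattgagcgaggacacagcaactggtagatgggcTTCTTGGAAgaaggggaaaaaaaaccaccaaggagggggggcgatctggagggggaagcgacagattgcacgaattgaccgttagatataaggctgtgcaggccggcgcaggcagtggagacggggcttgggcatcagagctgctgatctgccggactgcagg
Sall2: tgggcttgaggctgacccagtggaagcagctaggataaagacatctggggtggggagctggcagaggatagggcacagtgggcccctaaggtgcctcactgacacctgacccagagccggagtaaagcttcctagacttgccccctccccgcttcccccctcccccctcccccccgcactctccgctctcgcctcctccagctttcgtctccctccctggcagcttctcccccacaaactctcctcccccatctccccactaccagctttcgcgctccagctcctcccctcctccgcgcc
No factor's binding was measured in these samples, and a match describes only the letters in the window. The Foxd3 window and 3 of 4 Lef1 windows held no match to these motifs, and the fourth Lef1 window held 3 TCF/LEF matches. The Sall2 window shown was 65% G and C, against 30.3% in the other Sall2 window and 51% in the Otx2 window shown.

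**Figure D2:**
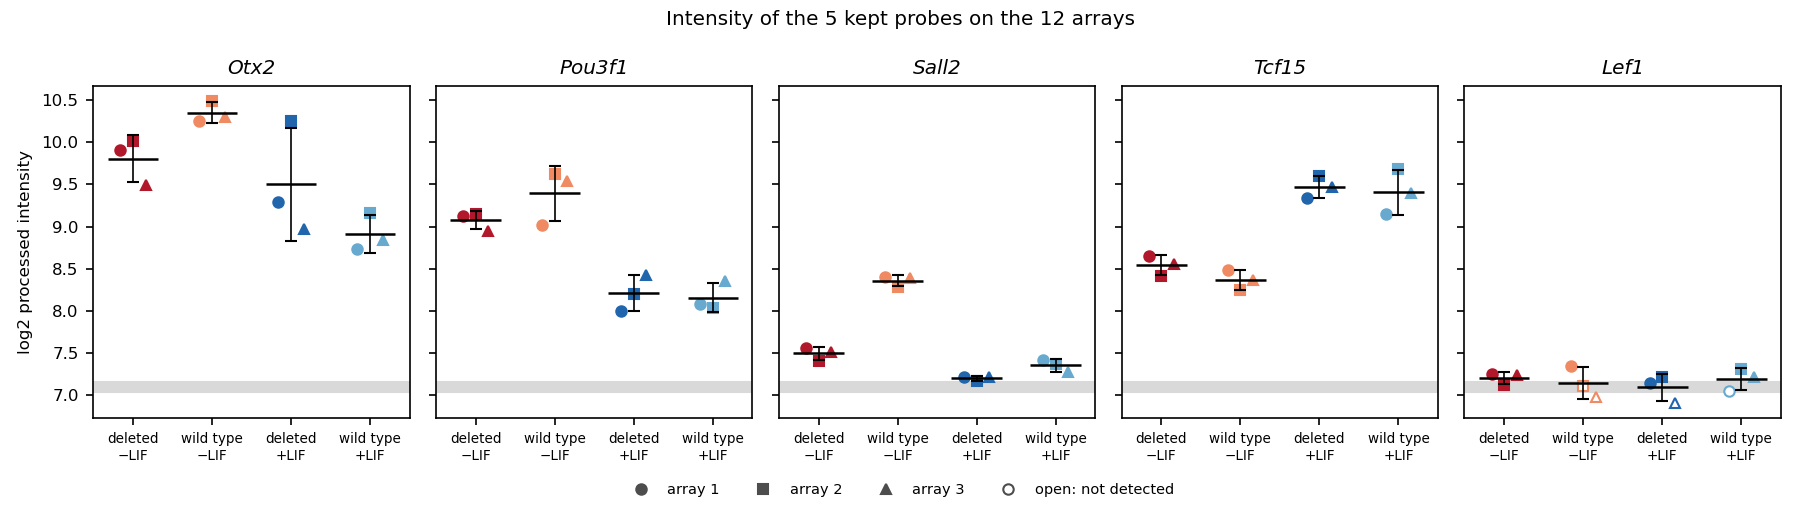
Log2 processed intensity of the 5 kept probes on the 12 arrays, with a symbol for each array number, horizontal bars for the group mean and whiskers for the SD (n = 3). The grey band spans the dimmest detected probe of each array (7.04 to 7.15): the Lef1 probe lies at that band, and in Sall2 the 3 arrays of wild type cells without LIF stand above the other 9 arrays.

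Otx2, a homeodomain factor that directs the move from naive to primed enhancers, was higher without LIF than with LIF in wild type cells. In deleted cells the LIF difference was smaller and did not pass the test. In deleted cells without LIF its log2 intensities were 9.91, 10.02 and 9.49 on arrays 1 to 3, against 10.25, 10.49 and 10.31 in wild type cells without LIF. With LIF they were 9.29, 10.25 and 8.97 in deleted cells, against 8.73, 9.16 and 8.84 in wild type cells. The wild type cultures did not overlap, as was so for 32.5% of kept probes, whereas the deleted cultures did, because array 2 of deleted cells with LIF was higher than every array of deleted cells without LIF. Array 2 was also the highest of its group in 4 of 4 groups.

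Without LIF minus with LIF, Otx2 differed by 1.44 ± 0.25 in wild type cells (log2, ± SE, n = 3 each), a 2.71-fold rise with a limma adjusted p of 0.00121. Only 79 of 15999 kept probes had a larger absolute difference in that comparison. In deleted cells the difference was 0.31 ± 0.25 (95% confidence interval -0.23 to 0.84, adjusted p = 0.545). Leaving out array 2 of deleted cells with LIF raised it to 0.68 and brought it past the test (adjusted p = 0.036). The other leave-one-out values in deleted cells did not pass.

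Between genotypes the Otx2 differences had opposite signs in the 2 cultures, and neither passed the test. Deleted minus wild type, it was -0.54 ± 0.25 without LIF (interval -1.08 to -0.0088, adjusted p = 0.203) and 0.59 ± 0.25 with LIF (interval 0.055 to 1.12, adjusted p = 0.168). Without LIF the 2 genotypes did not overlap, as was so for 26.9% of kept probes, and with LIF they did. The difference between these differences, without LIF minus with LIF, was -1.13 ± 0.35 and did not pass the limma fit (limma adjusted p = 0.502), although 10 of 15999 probes had a larger absolute value. Without array 2 of deleted cells with LIF, the difference with LIF was 0.21 (adjusted p = 0.533) and the interaction -0.76 (adjusted p = 0.784).

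Arrays of the same number deviated together between genotypes, so the fit was repeated with array number as a block. Otx2 then passed in both cultures, with an adjusted p of 0.0161 without LIF and 0.00974 with LIF, and the interaction passed with 0.0174. With a separate block for each number and culture, a fit chosen after seeing the data, the adjusted p was 0.00319 without LIF, 0.0017 with LIF and 0.00172 for the interaction. The same-numbered differences without LIF were -0.34, -0.47 and -0.82, below 0 in 3 of 3 pairs. With LIF they were 0.55, 1.09 and 0.12, above 0 in 3 of 3 pairs. The pairing within a culture is the same under both namings of the arrays. The blocked fits were not repeated with single arrays left out.

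Otx2 is also active in visceral endoderm, some of whose markers were called in both genotype comparisons. Of 12 primitive and visceral endoderm markers, 6 had a kept probe, and 3 were higher and 0 lower in deleted than wild type cells with LIF (Amn, Col4a1 and Dab2, where a second Dab2 probe did not pass). Their summed intensity was 2101 to 2489 in deleted cells with LIF, against 1496 to 1668 in wild type cells with LIF. The defining genes Gata4, Sox17, Foxa2, Sox7, Afp and Ttr had no kept probe. In the same comparison 2 of 6 tested trophoblast markers (Tfap2c and Krt19) were higher and 0 lower. So were 2 of 5 tested fibroblast markers (Thy1 and Col1a1), with 0 lower, and 0 neuroectoderm or neural crest markers passed. Over all 9527 genes, 6.47% were higher and 3.52% lower. Trophoblast sums were 5940 to 7936 in deleted cells with LIF and 4305 to 5717 in wild type cells with LIF. Fibroblast sums were 2668 to 2902 in deleted cells with LIF and 2412 to 2710 in wild type cells with LIF. Without LIF, where the Otx2 difference was -0.54, 2 of the 6 endoderm markers were also higher and 0 lower in deleted cells. Their sums there were 1935 to 2065 in deleted cells and 1537 to 1721 in wild type cells. The part of these cell types in the Otx2 values was not tested. In such bulk samples, fewer cells of a type and less RNA per cell cannot be told apart.

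Pou3f1, a POU factor that accompanies Otx2 at primed enhancers and later marks neural progenitors, was higher without LIF in both genotypes. In deleted cells without LIF its log2 intensities were 9.13, 9.15 and 8.95 on arrays 1 to 3, against 9.02, 9.62 and 9.54 in wild type cells without LIF. With LIF they were 8.00, 8.20 and 8.43 in deleted cells, against 8.09, 8.03 and 8.35 in wild type cells. Each array without LIF was above each array with LIF, and the genotypes overlapped in both cultures. Such a separation by LIF was seen for 28.6% of kept probes in deleted cells and 32.5% in wild type cells.

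The LIF difference of Pou3f1 was 0.87 ± 0.15 in deleted cells (1.83-fold, adjusted p = 0.00277) and 1.24 ± 0.15 in wild type cells (2.36-fold, adjusted p = 9.52e-05). Scaling the non-normalized intensities by their medians took the call away in deleted cells (0.78, adjusted p = 0.142). The interaction was -0.37 (interval -0.84 to 0.10, adjusted p = 0.81). Deleted minus wild type, Pou3f1 differed by -0.32 ± 0.15 without LIF (interval -0.65 to 0.014, adjusted p = 0.231) and by 0.05 ± 0.15 with LIF (interval -0.28 to 0.38, adjusted p = 0.886). Without LIF the call was made when array 1 of wild type cells without LIF was left out (-0.51, adjusted p = 0.0319), and with the block for each number and culture (adjusted p = 0.036). It was not made with 1 block a number (adjusted p = 0.0777).

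Sall2, a zinc finger factor of the Sall family, was the gene of the 7 whose probe passed the test between genotypes. In deleted cells without LIF its log2 intensities were 7.56, 7.41 and 7.52 on arrays 1 to 3, against 8.40, 8.29 and 8.39 in wild type cells without LIF. With LIF they were 7.22, 7.17 and 7.22 in deleted cells, against 7.42, 7.37 and 7.27 in wild type cells. Wild type cells without LIF overlapped neither deleted cells without LIF (26.9% of kept probes) nor wild type cells with LIF (32.5%), and the lowest values lay just above the dimmest detected probes.

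Without LIF, Sall2 fell by 0.87 on the log2 scale in deleted relative to wild type cells (SE 0.08, 1.82-fold, adjusted p = 4.79e-05), and 100 of 15999 kept probes had a larger absolute difference. After neqc, which subtracts background, the difference was -1.53. The same-numbered differences were -0.84, -0.88 and -0.87. With LIF the difference was -0.15 ± 0.08 (interval -0.32 to 0.023, adjusted p = 0.285), and the genotypes did not overlap, as was so for 28.9% of kept probes.

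Sall2 rose without LIF relative to with LIF by 1.01 ± 0.08 in wild type cells (2.01-fold, adjusted p = 2.34e-06), and the value was 1.88 after neqc. In deleted cells the LIF difference was 0.29 ± 0.08 (1.22-fold, adjusted p = 0.0359), and 0.77 after neqc. That last call was lost with no detection filter (adjusted p = 0.0649), with median scaling (0.2) and with only the 2 groups in the fit (0.0575). It was also lost on leaving out array 1 or 3 of deleted cells without LIF, array 3 of wild type cells without LIF, or any 1 array of deleted cells with LIF (adjusted p up to 0.129).

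The difference of the Sall2 deletion differences, without LIF minus with LIF, was -0.72 ± 0.11 (interval -0.96 to -0.47, adjusted p = 0.0459). It passed with array number as a block (adjusted p = 0.00702, or 0.00202 with a block for each number and culture). Its call was lost with normexp (adjusted p = 0.0749), with probes detected on all 12 arrays (0.0672), with an intensity trend (0.0508), with neqc (-1.11, adjusted p = 0.177) and with median scaling (0.999). It was also lost on leaving out any 1 of 11 arrays, all but array 1 of deleted cells without LIF, with values from -0.75 to -0.67 and adjusted p up to 0.193.

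Tcf15, a basic helix-loop-helix factor that in mouse ES cells marks cells primed to leave the naive state, went the other way and was lower without LIF in both genotypes. In deleted cells without LIF its log2 intensities were 8.65, 8.42 and 8.56 on arrays 1 to 3, against 8.48, 8.24 and 8.36 in wild type cells without LIF. With LIF they were 9.34, 9.60 and 9.48 in deleted cells, against 9.15, 9.68 and 9.40 in wild type cells. Each array without LIF was below each array with LIF, as in the 28.6% (deleted) and 32.5% (wild type) of kept probes whose cultures did not overlap. The genotypes overlapped in both cultures.

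The LIF difference of Tcf15 was -0.93 ± 0.13 in deleted cells (1.90-fold lower, adjusted p = 0.000406) and -1.05 ± 0.13 in wild type cells (2.07-fold lower, adjusted p = 7.86e-05). Deleted minus wild type, it was 0.18 ± 0.13 without LIF (interval -0.094 to 0.45, adjusted p = 0.436; 0.322 with array number as a block) and 0.06 ± 0.13 with LIF (interval -0.21 to 0.33, adjusted p = 0.829). The same-numbered differences without LIF were 0.17, 0.17 and 0.20, above 0 in 3 of 3 pairs. The interaction was 0.12 (interval -0.27 to 0.50, adjusted p = 0.961).

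The kept Lef1 probe stayed at the detection floor. Its log2 intensities were 7.25, 7.12 and 7.23 in deleted cells without LIF, against 7.35, 7.10 and 6.97 in wild type cells without LIF. With LIF they were 7.14, 7.22 and 6.91 in deleted cells, against 7.05, 7.31 and 7.21 in wild type cells. All 4 groups overlapped, and the differences ran from -0.10 to 0.11 with adjusted p of 0.65 to 0.821.

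Over the 5 tested genes, 1 was called between genotypes without LIF, against 8.61% of all kept probes, and 0 with LIF, against 8.3%. Before adjustment, limma put 2 of 5 below 0.05 without LIF (Otx2 and Sall2), against 23.7% of kept probes, and 1 of 5 with LIF (Otx2), against 23.3%. The block by array number called 1 with LIF. Without LIF minus with LIF, 3 of 5 were called in deleted cells (9.04% of all kept probes), 2 higher and 1 lower, and 4 of 5 in wild type cells (18.2%), 3 higher and 1 lower. The interaction was called for 1 of 5 (0.0688%, or 11 of 15999 probes). The 2 LIF comparisons share no arrays, while each genotype comparison shares arrays with both. Lef1 passed the filter through 1 group, so these counts are a description of what was measured. With array number as a block, the call counts over all kept probes were 3052 between genotypes without LIF and 2984 with LIF, against 1378 and 1328 without the block. For LIF in deleted cells they were 2767 with the block and 1446 without it, and for the interaction 92 and 11.

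The share of higher calls among all calls depended on the scaling. Between genotypes 53.9% of calls were higher in deleted cells without LIF and 62.7% with LIF, against 93.4% and 93.1% with median scaling. For LIF, 48.1% of calls were higher without LIF in deleted cells and 51.8% in wild type cells, against 20% and 25.7% with median scaling. The directions of the calls of Otx2, Pou3f1, Sall2 and Tcf15 were the same under both scalings.

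**Figure D3:**
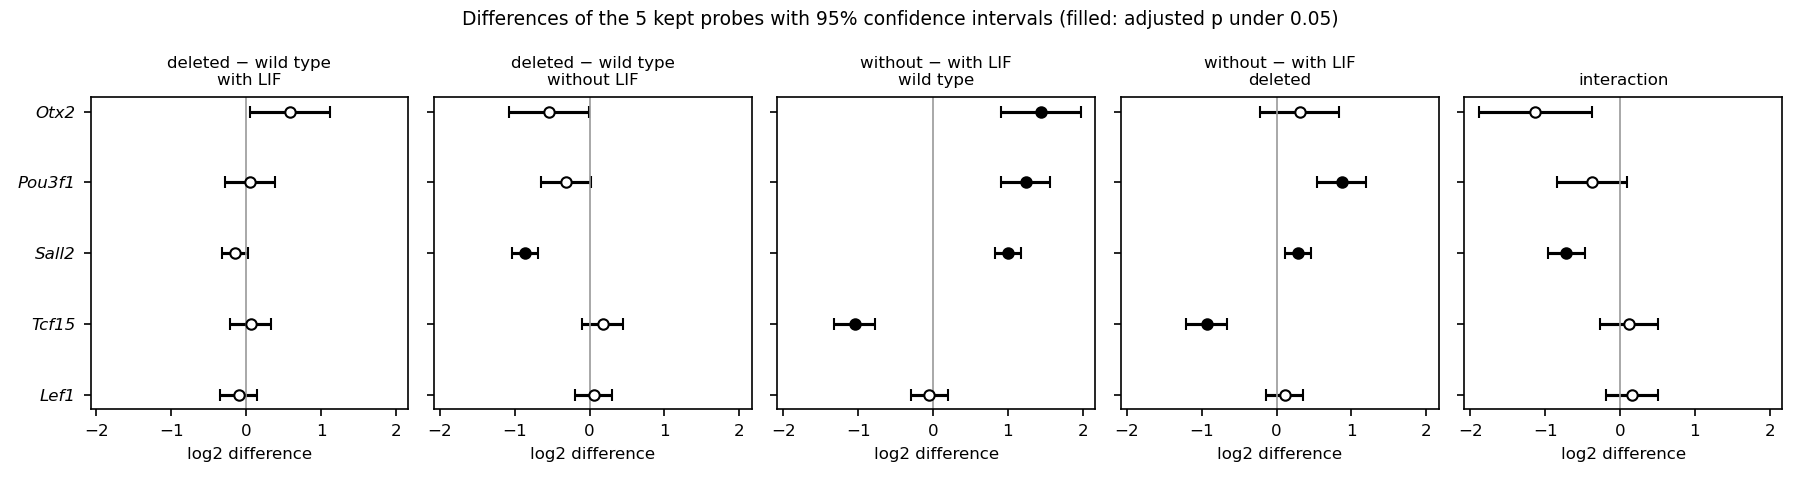
Log2 differences of the 5 kept probes in the 4 pairwise comparisons and the interaction, with 95% confidence intervals. Filled points passed an adjusted p of 0.05: Sall2 is filled in the comparison of genotypes without LIF (-0.87), and Otx2 has intervals on opposite sides of 0 in the 2 genotype comparisons.

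Of 26 other formative and primed epiblast genes, 18 had a kept probe. Without LIF minus with LIF in wild type cells, 9 were higher and 1 lower, against 10.7% and 9.85% of 9527 genes. In deleted cells 5 were higher and 1 lower, against 4.94% and 5.65%, and those 5 were among the 9. The median differences were 0.25 in deleted cells, against -0.018 over all genes, and 0.32 in wild type cells, against 0.0013. The list was chosen with earlier results of these data known.

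Fgf8, a growth factor of the epiblast and primitive streak, differed by 1.70 ± 0.27 without LIF minus with LIF in wild type cells (adjusted p = 0.000575). Dnmt3b, a de novo DNA methyltransferase, differed by 0.76 ± 0.15 in deleted cells (adjusted p = 0.00585) and 1.37 ± 0.15 in wild type cells (adjusted p = 3.38e-05), and its second kept probe passed in both. Sox11, an HMG-box factor of neural progenitors, differed by 0.88 ± 0.13 in deleted cells (adjusted p = 0.000897) and 1.15 ± 0.13 in wild type cells (adjusted p = 5.54e-05), again with its second probe passing in both.

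Sox4, a relative of Sox11, rose in both genotypes, by 0.50 in deleted cells and 0.71 in wild type cells. Cldn6, a tight junction protein, rose by 0.49 in deleted cells and 1.09 in wild type cells. Hes6 and Lin28a were less uniform: not every kept probe of either gene passed where its brightest did. Etv4, an ETS factor downstream of FGF signalling, was the lower gene in both genotypes, at -1.09 in deleted cells and -1.01 in wild type cells. Fgf5, the growth factor most used to mark the primed epiblast, and Dnmt3a, Sox3, Zic5, Rbpj, Wnt8a and Cdh2 had no kept probe.

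Between genotypes without LIF, 0 of the 18 were higher and 3 lower, against 5.83% and 4.45% of 9527 genes, with a median of -0.30 against 0.0023 over all genes. The 3 were Fgf8 (-1.30 ± 0.27, adjusted p = 0.00952), Sox11 (-0.55 ± 0.13, adjusted p = 0.0223) and Tead2, a Hippo pathway factor (-0.38 ± 0.10, adjusted p = 0.026). The second Sox11 probe did not pass (-0.20, adjusted p = 0.216). Fgf8 was detected on 10 of 12 arrays. With LIF, 1 was higher and 0 lower, against 6.47% and 3.52%, with a median of -0.14 against 0.019. That gene was Cldn6 (0.62 ± 0.13, adjusted p = 0.0134). A second Zfp281 probe was lower with LIF (-0.34, adjusted p = 0.0299), where the brighter one was not called. The interaction was called by limma for 0 of 18, against 0.0315% higher and 0.0525% lower, with 4 of 18 below an unadjusted p of 0.05.

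**Figure D4:**
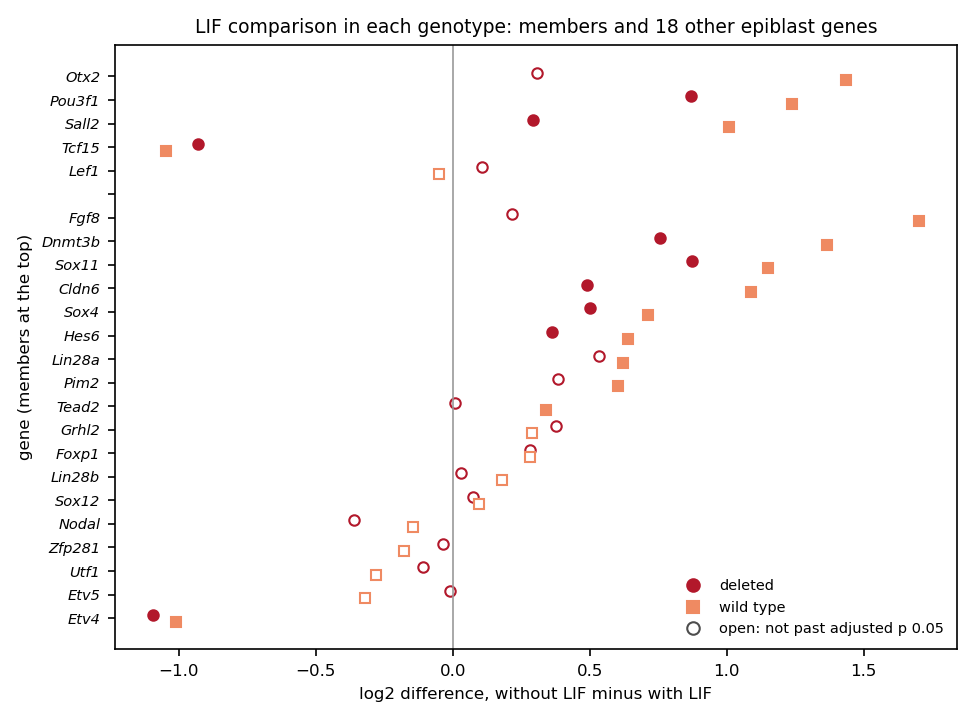
Log2 difference without LIF minus with LIF for the 5 kept genes of the 7 (top) and the 18 other epiblast genes, with circles for deleted and squares for wild type cells. Filled symbols passed an adjusted p of 0.05: Fgf8 lies farthest right in wild type cells (1.70) and is open in deleted cells, while Tcf15 and Etv4 lie left of 0 in both genotypes.

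Of 22 naive and core pluripotency genes, 20 had a kept probe. Without LIF minus with LIF, 0 were higher and 14 lower in deleted cells, against 4.94% and 5.65% of 9527 genes. In wild type cells 0 were higher and 16 lower, against 10.7% and 9.85%. Their medians were -0.90 in deleted cells, against -0.018 over all genes, and -1.36 in wild type cells, against 0.0013. Esrrb differed by -1.85 in deleted and -2.51 in wild type cells, and Zfp42 by -1.80 in deleted and -2.45 in wild type cells. Klf4 differed by -1.78 in deleted cells, and Gbx2 by -2.31 in wild type cells. Tcf15 moved with this group. Between genotypes without LIF 4 were higher and 2 lower, against 5.83% and 4.45% of 9527 genes (median 0.075, against 0.0023). They were led by Stat3 (1.08), Pou5f1 (-0.85) and Klf5 (0.82). With LIF 1 was higher and 6 lower, against 6.47% and 3.52% (median -0.38, against 0.019). These were led by Nr5a2 (-0.78), Dppa3 (-0.68) and Stat3 (0.64). Among the lower genes with LIF, the second probes of Nr5a2, Pou5f1 and Tcl1 and the other kept probes of Tbx3 did not pass. Of the other 2 Stat3 probes, neither passed with LIF and 1 passed without LIF. Nanog was not called between genotypes by its brighter probe, but its second probe passed without LIF (-0.82, adjusted p = 0.00962) and with LIF (-0.87, adjusted p = 0.00806). The interaction was called higher for Tfcp2l1 (0.83 ± 0.14, adjusted p = 0.046). Before adjustment, limma put 11 of 20 below 0.05 there, against 7.05% of kept probes. The median interaction was 0.36, against -0.018 over all genes.

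For Lef1, the pathway it serves was read from 16 beta-catenin and Wnt response genes, 9 with a kept probe. Without LIF minus with LIF, 1 was higher and 0 lower in deleted cells (4.94% and 5.65% of 9527 genes), and 2 higher and 0 lower in wild type cells (10.7% and 9.85%). These were Tcf7l1, a repressing relative of Lef1 (0.55 in deleted and 0.76 in wild type cells), and in wild type cells Axin2, a feedback target (0.58). A second Tcf7l1 probe did not pass in deleted (0.05) or wild type cells (0.07). Between genotypes 0 were called by limma without LIF (2 at an unadjusted p below 0.05), although 1 of the dimmer probes of Ctnnb1, the gene of beta-catenin, passed there (0.42, adjusted p = 0.0141). With LIF 0 were higher and 1 lower, the cell cycle gene Ccnd1 (-0.78). The interaction was called for 0, also before adjustment.

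Paralogs of the 7 genes were mostly undetected: 4 of 21 had a kept probe, namely Sall1, Sall4, Tcf7l1 and Tcf7l2. Sall1 was lower without LIF than with LIF (-0.30 in deleted and -0.47 in wild type cells), and lower in deleted than wild type cells with LIF (-0.44). Its second probe passed in none of the 3. Sall4 and Tcf7l2 passed in no comparison.

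Markers of other cell types were read beside the LIF rise of Otx2, Pou3f1 and Sall2 in wild type cells, and their part in it was not tested. Over all 9527 genes, 10.7% were higher and 9.85% lower in that comparison. Of 12 primitive streak and early mesoderm markers 3 had a kept probe and 0 passed in any limma comparison (1 at an unadjusted p below 0.05 in each genotype comparison). Their sums were 384 to 408 without LIF and 341 to 399 with LIF. Of these 3 probes, 0 were detected on all 12 arrays. The median probe of an array had an intensity of 126, background included, so these sums lay near the floor. Of 12 neuroectoderm markers 3 had a kept probe, and 1 (Nes) was higher without LIF. Their sums were 643 to 665 without LIF and 508 to 597 with LIF, and the defining genes Sox1 and Pax6 had no kept probe. Of 8 neural crest markers 6 had a kept probe, and 5 were higher and 1 lower. Their sums were 1187 to 1240 without LIF and 989 to 1115 with LIF. Of these 6 probes, 1 was detected on all 12 arrays. A probe undetected on some arrays can pass the filter through the group where it is high. The counts therefore only describe what was measured. Snai2 and Sox9 had no kept probe.

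Of 10 trophoblast markers 6 had a kept probe, and 4 were higher and 1 lower, with sums of 5789 to 6859 without LIF and 4305 to 5717 with LIF. Cdx2, Elf5, Hand1 and Plet1 had no kept probe. Of 10 fibroblast markers 5 had a kept probe, and 1 (Acta2) was higher, with sums of 3257 to 5526 without LIF and 2412 to 2710 with LIF. The endoderm markers had 1 higher and 1 lower, with sums of 1537 to 1721 without LIF and 1496 to 1668 with LIF. Detection on all 12 arrays was found for 4 of 6 trophoblast, 4 of 5 fibroblast and 4 of 6 endoderm probes.

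In the genotype comparison without LIF, where Sall2 fell, 1 neuroectoderm marker was higher in deleted cells (Map2), and 1 neural crest (Ngfr), 2 endoderm and 2 trophoblast markers were higher. None of these lists had a lower gene there, and 0 fibroblast markers passed. Over all 9527 genes, 5.83% were higher and 4.45% lower. Endoderm sums were 1935 to 2065 in deleted cells and 1537 to 1721 in wild type cells. Trophoblast sums were 6528 to 11547 in deleted cells and 5789 to 6859 in wild type cells. Their part in the Sall2 difference was not tested.

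The genes most like each of the 5 were found by Pearson's r over the 12 arrays, which share their normalization and the differences between groups. Nearest to Otx2 were Nup210 (r = 0.940), Slit3 (0.936) and Hnrnph1 (0.930). Nearest to Pou3f1 were Wls, the carrier of Wnt ligands (0.973), Irf2 (0.969) and Ddr1 (0.966). Sall2 was closest to Smo, the Hedgehog signal transducer (0.987), then Plpp6 (0.979) and Car14 (0.977). Tcf15 was closest to Acsbg3 (0.980), Krt42 (0.979) and the naive factor Klf4 (0.974). The nearest genes to the dim Lef1 probe reached 0.804 (Dync1li2), 0.803 (Golga2) and 0.790 (1110038F14Rik).

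Within groups these likenesses held to different degrees. After removal of the group means, Nup210 kept an r of 0.833 with Otx2, while Smo kept 0.421 and Car14 0.309 with Sall2. The Otx2 likeness therefore included the spread between arrays of a group, in which array 2 was the highest, and the Sall2 likeness lay mostly between groups.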

How the data were processed

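Gene expression was measured on 12 Illumina arrays, 3 in each of 4 groups taken from the sample titles. Of the 2 deposited tables, one held, per the file headers, non-normalized bead intensity values, with a detection p-value beside each. The other held intensity values processed by the authors, on a linear scale, whose columns shared a minimum (86.5) and a maximum (35095), as after quantile normalization. The authors' normalization was not stated. GenomeStudio was named per the submitters' processing notes, with no version. Processed intensities were not background-subtracted, so folds of dim genes understate the difference. Detection p-values followed each array by rank order, which matches values rather than names. No chip or scan date is given in the sources used here.

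The log2 values were computed from the deposited processed intensities, with no pseudocount. Gene symbols came from the platform annotation: 34885 probes had 1 symbol, 18 several and 10378 none. Kept were probes with a detection p below 0.05 on 3 arrays of at least 1 group (15999 of 45281, 9527 genes); list genes were read by their kept probe of highest mean log2. In R 4.3.3, limma 3.58.1 (lmFit and eBayes, 8 residual degrees of freedom) fitted 4 group means and tested 4 pairwise differences and the interaction in two-sided tests, adjusted by Benjamini-Hochberg over 15999 probes at 0.05. The median SE of a log2 difference was 0.11, and precision is limited by the number of arrays. The fit was tested on simulated data with independent noise on each array. Same-numbered arrays deviated together in the real data, so that test does not cover this feature.

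Named were all 7 genes, the 3 genes most correlated with each, and up to 3 called genes of largest change per list and comparison, with paralogs that had a kept probe. Other names (Hdac2, identity genes, members and untested genes of the lists) were chosen after their values were seen. The 10 lists were other epiblast genes, pluripotency genes, Wnt response genes, paralogs, and markers of streak, neuroectoderm, neural crest, endoderm, trophoblast and fibroblast. The members and lists were chosen with earlier results of these data known.

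Replicate numbers come from the sample titles. Correlations of deviations from group means between same-numbered arrays were 0.702, 0.542 and 0.271 for the genotypes without LIF and 0.513, 0.319 and 0.395 with LIF. For LIF they were 0.575, 0.328 and 0.398 in deleted cells and 0.536, -0.041 and 0.381 in wild type cells. The numbers were taken to pair the arrays in the first 3 comparisons. In the last, the correlation for array 2 was -0.041, so pairing there is uncertain. Alternatives were normexp with quantile normalization (offset 50), no filter, detection on all 12 arrays, 1 probe a gene, median scaling and neqc of the non-normalized intensities, an intensity trend, 2-group fits, the replicate block, the other naming and leaving out each array.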

Additional observations from a re-analysis of the deposited data

Results flagged for a closer look

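Sall2 stands out because its difference between genotypes differed between the 2 cultures in the test of that difference itself: deleted minus wild type was -0.87 without LIF and -0.15 with LIF, and their difference was -0.72 (limma adjusted p = 0.0459). That call was close to the threshold: it was lost on leaving out any 1 of 11 arrays, and with normexp, detection on all 12 arrays, an intensity trend, neqc or median scaling. It was kept with the replicate block.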

How the results depend on the processing

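Under the array naming of the numbered columns, the LIF differences (without minus with) changed sign: in deleted cells Pou3f1 was -0.87, Sall2 -0.29 and Tcf15 0.93, and in wild type cells Otx2 was -1.44, Pou3f1 -1.24, Sall2 -1.01 and Tcf15 1.05. The Sall2 interaction became 0.72, and the genotype calls among the 5 genes became 0 without LIF and 1 with LIF. The replicate block called 2 of 5 without LIF, 1 with LIF and 2 for the interaction (3052, 2984 and 92 of all kept probes). It called 2767 probes for LIF in deleted and 4632 in wild type cells, where pairing by number is uncertain. It changed no other call of the 5 genes than those given beside Otx2. The block within each culture, added after seeing the data, called 3, 1 and 2 of 5 (3649, 3635 and 301 probes). Median scaling called 564 probes between genotypes without LIF and 637 with LIF, 735 for LIF in deleted cells (1 of 5 genes) and 1422 in wild type cells. The 2-group fit called 767 between genotypes without LIF. The interaction had 0 of 5 calls under normexp (3 probes), detection on all 12 arrays (1), median scaling (1), neqc (5) and an intensity trend (6), and 18 probes with no filter. Leaving out 1 array gave 522 to 1626 probes between genotypes without LIF (1 to 2 of 5), 438 to 1693 with LIF, 825 to 1609 for LIF in deleted cells and 3 to 12 for the interaction (0 to 1 of 5). Where a single array ends or makes a call of the 5 genes, it is named beside the result. The causes of these shifts were not tested. Signal over background limits Lef1, Foxd3 and Zic2.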
